A study of Homo sapiens with 8 samples.

Results

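The genes described here encode the WNT ligands, the frizzled (FZD) receptors and the secreted inhibitors of the DKK and SFRP families. Members were the array probes whose gene name is WNT, FZD, DKK or SFRP followed directly by digits and at most 1 final letter, with control spots left out. The rule found 42 probes for 37 genes among 34127 gene probes and 27274 gene names. They comprised 23 probes for 19 WNT genes, 10 probes for 10 FZD genes, 5 probes for 4 DKK genes and 4 probes for 4 SFRP genes. A single probe represented 33 of the 37 genes.

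Expression was measured by one-color Agilent array in MIA PaCa-2 and Capan-1, established cell lines from pancreatic ductal adenocarcinoma, the latter from a liver metastasis. For each line there were 2 arrays of cells taken 48 h after transfection with 10 nM of an siRNA against HOXB7, a homeobox transcription factor, and 2 arrays of parental cells. Transfection is described with 2 duplexes against different regions of HOXB7, and it is not said which of them the arrays hold. No array holds cells given a scrambled siRNA, so transfection as such and loss of HOXB7 cannot be told apart. MIA PaCa-2 was maintained in RPMI medium and Capan-1 in IMDM with more serum, and each line had a slide of its own, so line, medium and slide cannot be told apart. Plating for transfection is described in RPMI with no exception for Capan-1. Medium may thus also differ between siRNA-treated and parental Capan-1, where it cannot be told apart from the siRNA. Within each slide the siRNA samples came before the parental samples, so treatment and array position cannot be told apart either. Transfections and arrays were done in duplicate, but it is not said whether both arrays of a group came from separate cultures, and the p-values then measure only the spread between these samples, which may be technical.

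WNT proteins are secreted, lipid-modified ligands that bind FZD receptors together with the co-receptors LRP5 and LRP6. In the canonical branch this halts the breakdown of beta-catenin, which then acts with TCF/LEF factors on target genes in the nucleus. In the other branches, ligands such as WNT5A act through FZD, ROR and RYK receptors on cell polarity and movement. SFRP proteins resemble the ligand-binding part of FZD and hold WNT proteins outside the cell, whereas DKK1 binds the LRP co-receptors.

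The promoters of 4 members are printed first because results given further on turn on these genes. WNT10A was called higher with siRNA in MIA PaCa-2, a call lost in 12 of 18 alternatives of the processing. FZD8 had, in the main fit, the largest difference between the parental lines among the members above background in both. WNT5A was above background in parental MIA PaCa-2 only, and DKK1 is the DKK gene that was above background on all 8 arrays. Each stretch runs from 250 bases before to 50 bases after the start of the gene in RefSeq (GRCh38.p14), 5′ to 3′ in the direction of transcription, and capitals mark a motif match. RefSeq lists 2 starts for WNT5A, and the one with a match is shown.
WNT10A (chr2:218880602-218880901, plus strand): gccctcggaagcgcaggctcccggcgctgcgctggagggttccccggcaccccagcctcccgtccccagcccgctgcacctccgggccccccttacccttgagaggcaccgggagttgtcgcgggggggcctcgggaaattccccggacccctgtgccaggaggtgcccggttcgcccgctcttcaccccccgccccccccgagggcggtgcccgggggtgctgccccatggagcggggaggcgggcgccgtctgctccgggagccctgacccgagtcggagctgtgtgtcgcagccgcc
FZD8 (chr10:35642247-35642546, minus strand): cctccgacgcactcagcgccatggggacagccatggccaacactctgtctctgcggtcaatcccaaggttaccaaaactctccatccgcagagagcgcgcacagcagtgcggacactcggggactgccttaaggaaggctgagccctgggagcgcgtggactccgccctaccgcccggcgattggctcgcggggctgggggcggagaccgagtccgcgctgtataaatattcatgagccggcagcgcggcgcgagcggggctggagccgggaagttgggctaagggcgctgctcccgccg
WNT5A (chr3:55487257-55487556, minus strand): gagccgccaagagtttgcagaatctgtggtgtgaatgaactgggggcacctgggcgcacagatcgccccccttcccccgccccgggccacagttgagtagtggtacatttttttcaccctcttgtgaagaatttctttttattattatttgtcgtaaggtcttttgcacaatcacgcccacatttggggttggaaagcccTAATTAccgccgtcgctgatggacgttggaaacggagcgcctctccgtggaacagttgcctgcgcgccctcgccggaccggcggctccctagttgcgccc
DKK1 (chr10:52314031-52314330, plus strand): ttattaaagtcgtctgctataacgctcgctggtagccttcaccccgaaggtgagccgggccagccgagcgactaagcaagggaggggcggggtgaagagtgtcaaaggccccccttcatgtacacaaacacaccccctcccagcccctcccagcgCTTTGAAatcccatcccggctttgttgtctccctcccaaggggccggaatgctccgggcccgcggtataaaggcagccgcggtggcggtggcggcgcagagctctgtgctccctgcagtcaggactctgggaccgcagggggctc

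The motifs searched on both strands were CTTTGAT and CTTTGAA, letters that TCF/LEF factors are known to bind, and TAATTA, the core of many homeodomain sites. RefSeq promoters were matched for 25 of the 37 genes, 28 promoters in all. CTTTGAT was in 0 of the 28, against 2.62% of all 35116 promoters of this length. CTTTGAA was in 1 of them, that of DKK1, where it began 95 bases before the start, against 4.43% of all promoters. TAATTA was in 2, those of WNT8B and WNT5A, the latter beginning 50 bases before the start, against 4.84% of all promoters. A match is a description of the letters and not a site of binding. The median GC content of the member promoters was 69.8%, against 58.7% over all promoters.

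The arrays were of similar quality. Between 67.5% and 73.0% of the gene probes were well above background, the call of the scanner software that a spot exceeds its local background, and no probe was saturated. The median difference between both arrays of a group was 0.103 to 0.168 on the log2 scale over all probes in the fit. It was widest in parental MIA PaCa-2, whose arrays also held both ends of the range of probes above background. Levels below are log2 intensities relative to the 75th percentile of the same array, and they are compared only within a probe. A fold given as "at least" allows for signal below background but not for the spread between arrays. HOXB7 read -4.82 and -4.09 on the parental MIA PaCa-2 arrays and -7.76 and -7.78 on the siRNA arrays, where it was not well above background, so the parental level was at least 2.81-fold higher (adjusted p = 0.0173). That call was lost in 9 of 17 alternatives, among them normexp background correction (-0.098 on the log2 scale, adjusted p = 0.599). In Capan-1 it read -2.48 and -2.34 on the parental and -5.26 and -4.80 on the siRNA arrays (log2 difference -2.62 ± 0.26 SE, adjusted p = 0.121). Thus every siRNA array lay below both parental arrays of its line, although the adjusted p missed the threshold of 0.05 in Capan-1.

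The line labels were checked against markers of pancreatic ductal epithelium. All 11 marker genes were well above background on both arrays of each Capan-1 group and 7 of the 11 on those of MIA PaCa-2. EPCAM, CDH1, CEACAM5 and CEACAM6 were not well above background on any parental MIA PaCa-2 array. The summed intensity of the list was 114807 to 131375 in parental MIA PaCa-2 and 360898 to 402679 in parental Capan-1. Unlike the levels, this sum and all sums below are of intensities without scaling between arrays. Fibroblast markers summed to 3882 to 4592 in parental MIA PaCa-2 and 36.4 to 40.4 in parental Capan-1, with 3 and 1 of 7 genes well above background on both arrays, and FAP, LUM and PDGFRB on no array. Leukocyte markers summed to 1287 to 1688 and 470.1 to 577, with 6 of 6 genes above background in both lines, and endothelial markers to 114 to 138 and 88.8 to 115, with 2 of 4. The epithelial, fibroblast and leukocyte markers thus moved with every difference between the lines given below, and their part in it was not tested. In whole-culture RNA, fewer cells of a type and less RNA per cell cannot be told apart.

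Of the 42 member probes, 18 were well above background on all 8 arrays, and 7 were on none. The 18 were probes of 9 FZD genes, 8 WNT genes and DKK1. Only FZD10 among the receptors fell short, with 1 array above background. Probes for WNT7A, WNT9A, WNT16, DKK2 and SFRP4 were not well above background on any array. Both arrays were above background for 25 probes in parental MIA PaCa-2, 24 in its siRNA group, 22 in parental Capan-1 and 21 in its siRNA group. In each of the 4 groups this held for 9 of the 10 FZD genes, whereas for the SFRP genes it held for SFRP1 in MIA PaCa-2 alone.

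A further 7 genes were seen on single arrays, with no group above background on both: WNT2 on 2 arrays, WNT4 on 3, WNT8B on 2, and WNT8A, FZD10, SFRP2 and SFRP5 on 1 each. These probes were not tested. A second WNT1 probe and a second DKK3 probe were not well above background on any array, so the values of these genes rest on 1 probe each.

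The first comparison asked how the ligands, receptors and inhibitors differ between the lines before treatment. Among parental cells 28 member probes were tested, of which 14 were higher and 12 lower in MIA PaCa-2 than in Capan-1. Over all probes 70.2% were called in this comparison, 39.2% higher and 31% lower. Of the 28 probes, 9 were above background on both arrays of 1 line only and passed the filter through it. Among the 18 probes above background on all 8 arrays, 7 were higher and 9 lower, beside 70% called over all such probes. Groups did not overlap for 27 of the 28 probes, beside 86.5% of all probes tested. The median absolute difference was 1.81 for the members and 0.77 for all probes tested, on the log2 scale. Both values include probes above background in 1 line only, whose fitted differences rest partly on signal near background. For the 18 member probes above background on all 8 arrays the median was 1.22.

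**Figure D1:**
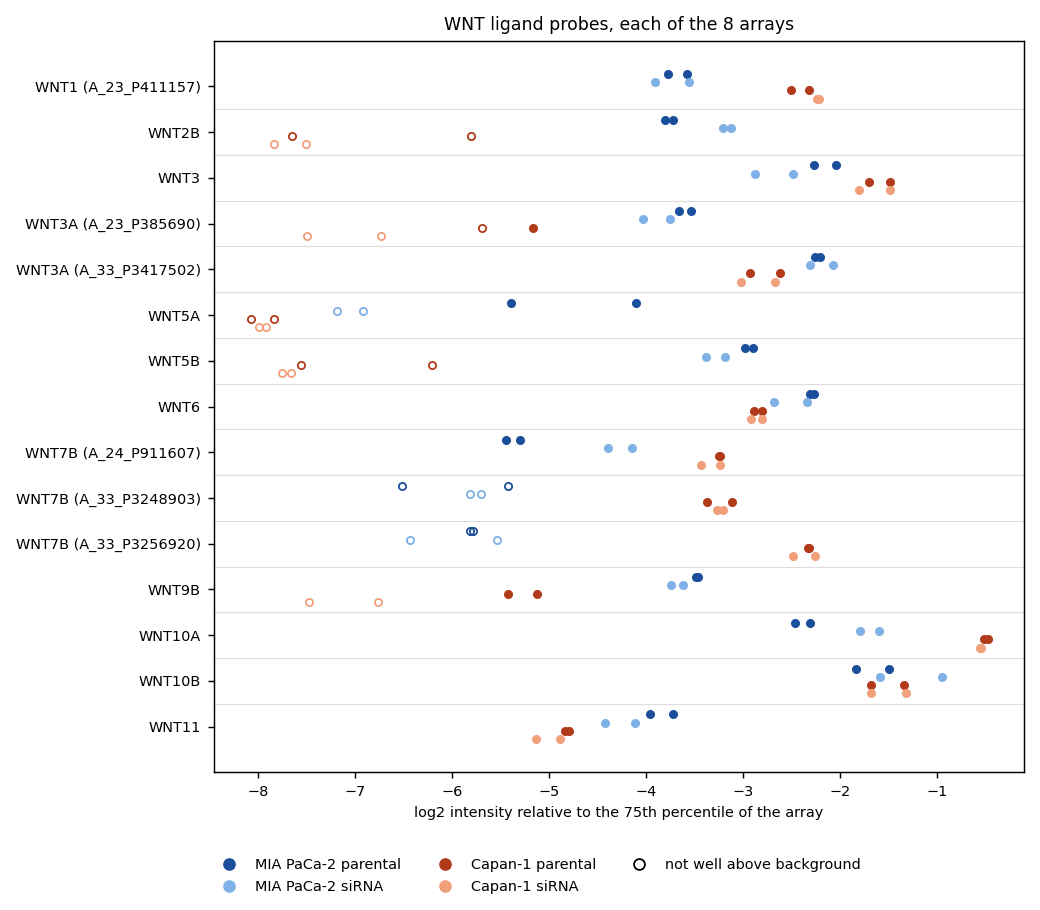
Log2 intensity relative to the 75th percentile of the array (x axis) of each tested WNT probe (y axis), 1 point per array, colored by group. Open points were not well above background; WNT5B and WNT2B were filled in MIA PaCa-2 only, and 2 of the WNT7B probes in Capan-1 only.

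WNT5B, WNT5A and WNT11, ligands known from the non-canonical branch, were higher in parental MIA PaCa-2. WNT5B, a close relative of WNT5A, read -2.90 and -2.98 in parental MIA PaCa-2 and was not well above background on any Capan-1 array, a level at least 7.83-fold higher (limma adjusted p = 0.00025). WNT5A itself read -4.11 and -5.39 in parental MIA PaCa-2 and was not well above background in Capan-1, at least 2.24-fold higher (adjusted p = 0.00056). With normexp background correction the fitted differences of these dim probes were 0.66 for WNT5B and 0.29 for WNT5A on the log2 scale, against 3.94 and 3.21, and both stayed past the threshold. WNT11, which takes part in convergent movements of the embryo, read -3.72 and -3.96 against -4.83 and -4.79, a difference of 0.97 ± 0.15 (adjusted p = 0.00166).

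Among the other ligands higher in MIA PaCa-2, WNT2B read -3.81 and -3.72 and did not exceed background well on any Capan-1 array, at least 3.92-fold higher (adjusted p = 0.0035). WNT9B, a ligand of kidney development, read -3.49 and -3.47 in parental MIA PaCa-2 and -5.12 and -5.42 in parental Capan-1 (1.79 ± 0.24, adjusted p = 0.000794). Both WNT3A probes were higher, but by unequal amounts. One read -2.21 and -2.26 against -2.62 and -2.93 (0.54 ± 0.17, adjusted p = 0.0303), and the other read -3.66 and -3.53 against -5.69 and -5.16, where of the Capan-1 arrays only the latter was well above background (1.83 ± 0.29). WNT6 read -2.31 and -2.27 against -2.89 and -2.81, a difference of 0.56 ± 0.13 (adjusted p = 0.00862).

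The ligands lower in MIA PaCa-2 were WNT7B, WNT10A, WNT1 and WNT3. WNT7B, a canonical ligand known from lung and kidney epithelium, had 3 probes on chromosome 22 (hg18, minus strand), and all were lower. The probe at chr22:44751235-44751294 read -5.44 and -5.30 against -3.25 and -3.24 (-2.13 ± 0.12, adjusted p = 2.16e-05). The other probes, 53.6 and 55.9 kb away, were not well above background in MIA PaCa-2. Capan-1 was 11.1-fold higher on the nearer probe and at least 5.79-fold higher on the farther one. The 11.1-fold is the fitted difference itself (-3.47, 95% interval -4.15 to -2.79) and no bound.

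WNT10A, a ligand of tooth, hair and skin development, read -2.47 and -2.31 in parental MIA PaCa-2 and -0.52 and -0.48 in parental Capan-1, 3.71-fold lower (-1.89 ± 0.10, adjusted p = 1.65e-05). WNT1, the first WNT gene described in mouse mammary tumors, read -3.78 and -3.57 against -2.32 and -2.50 (-1.26 ± 0.15). WNT3 read -2.04 and -2.27 against -1.70 and -1.49, the smallest call among the lower ligands (-0.57 ± 0.19, adjusted p = 0.0345). WNT10B was the tested ligand without a call, and its groups overlapped, at -1.50 and -1.84 against -1.34 and -1.68 (-0.16 ± 0.26, 95% interval -0.80 to 0.49, adjusted p = 0.612).

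Of the 4 pairs of WNT genes with neighboring probes, 2 had calls in opposite directions. The WNT6 and WNT10A probes lie 19.5 kb apart on chromosome 2 (hg18), and WNT6 was higher and WNT10A lower in MIA PaCa-2. Those of WNT3 and WNT9B lie 110.7 kb apart on chromosome 17, and WNT3 was lower and WNT9B higher. On chromosome 12 the WNT10B probe lies 15.7 kb from the nearest WNT1 probe, which was not well above background. Its tested WNT1 neighbor was lower, whereas WNT10B was not called. In the last pair, WNT9A was not well above background on any array and its neighbor WNT3A was higher.

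**Figure D2:**
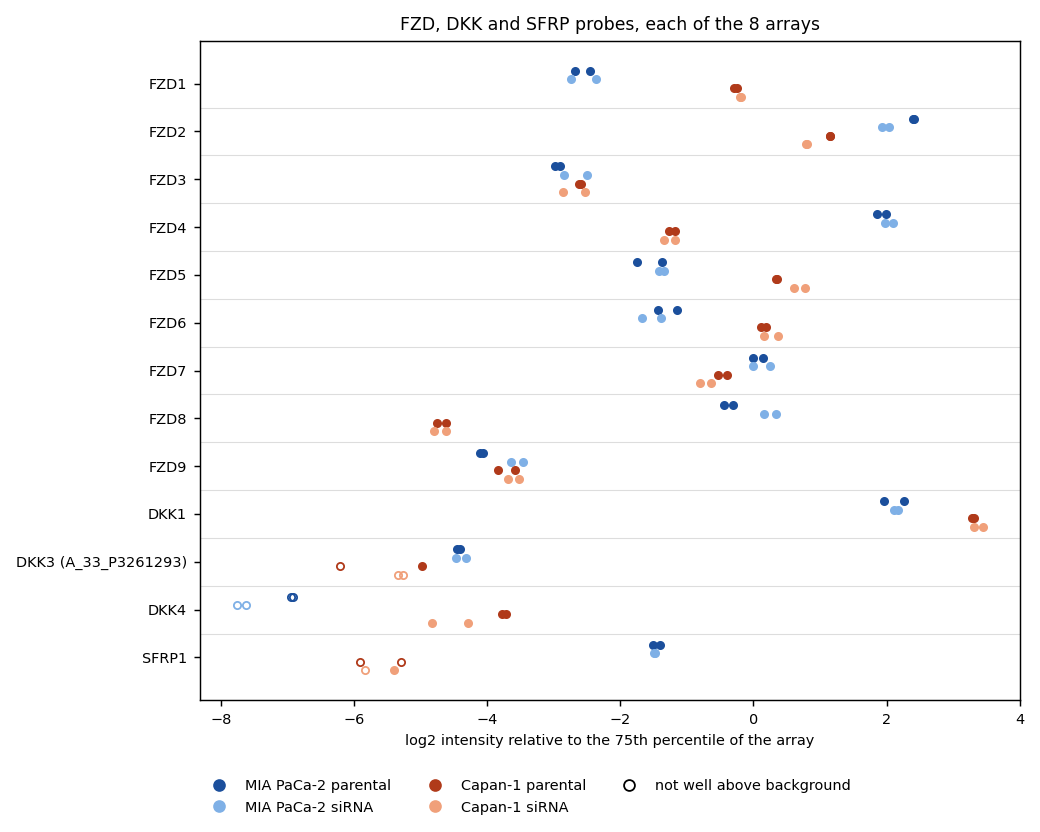
Log2 intensity relative to the 75th percentile of the array (x axis) of each tested FZD, DKK and SFRP probe (y axis), 1 point per array, colored by group. Open points were not well above background; FZD8, FZD4 and SFRP1 lie far to the right in MIA PaCa-2, and FZD1, FZD5, FZD6, DKK1 and DKK4 in Capan-1.

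The receptors split evenly, with 4 of the 9 tested FZD genes higher and 4 lower in MIA PaCa-2. In the main fit FZD8 had the largest difference of all members measured in both lines. It read -0.45 and -0.31 in parental MIA PaCa-2 and -4.76 and -4.62 in parental Capan-1, 19.8-fold higher (4.31 ± 0.12, limma adjusted p = 1.2e-06). Its promoter is printed above. FZD4, the receptor of the Norrin ligand in retinal vessels, read 2.00 and 1.86 against -1.26 and -1.17, 8.84-fold higher (3.14 ± 0.10, adjusted p = 2.43e-06). With normexp background correction FZD8, dim in Capan-1, fell to 2.11. The FZD4 difference ranged from 2.65 to 3.21 over the alternatives, so the order of these 2 receptors depends on the background correction.

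FZD2 and FZD7, close relatives of FZD1, were higher by less. FZD2 read 2.42 and 2.39 against 1.15 and 1.16 (1.25 ± 0.08, adjusted p = 3e-05), and FZD7 read -0.00043 and 0.14 against -0.54 and -0.39 (0.54 ± 0.13, adjusted p = 0.0102). FZD1 itself ran the other way, at -2.67 and -2.46 against -0.29 and -0.24, 4.92-fold lower (-2.30 ± 0.14, adjusted p = 3.03e-05). The 3 genes of this subfamily thus did not share a direction.

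FZD5, the sequence relative of FZD8, read -1.74 and -1.37 against 0.33 and 0.36, 3.74-fold lower (-1.90 ± 0.14, adjusted p = 5.69e-05). FZD6 read -1.44 and -1.15 against 0.12 and 0.19 (-1.45 ± 0.15, adjusted p = 0.000286). FZD9 was just past the threshold, at -4.06 and -4.11 against -3.58 and -3.83 (-0.38 ± 0.12, adjusted p = 0.0329). FZD3, a receptor of planar polarity and axon guidance, was not called, at -2.91 and -2.98 against -2.62 and -2.60 (-0.33 ± 0.16, 95% interval -0.72 to 0.06, adjusted p = 0.107).

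The secreted inhibitors also differed by gene. SFRP1 read -1.51 and -1.41 in parental MIA PaCa-2 and was not well above background in parental Capan-1, a level at least 16.2-fold higher in MIA PaCa-2 (adjusted p = 1.84e-05). DKK4 ran opposite, not well above background on any MIA PaCa-2 array and at -3.77 and -3.72 in parental Capan-1, which was at least 4.77-fold higher (adjusted p = 1.75e-05). DKK1 was bright on its probe in both lines, at 1.96 and 2.25 in parental MIA PaCa-2 and 3.28 and 3.31 in parental Capan-1, 2.27-fold lower in MIA PaCa-2 (-1.18 ± 0.12, adjusted p = 0.000229). DKK3, whose role in WNT signaling is less clear than that of DKK1, read -4.41 and -4.44 against -4.98 and -6.21, of which the last was not well above background (1.17 ± 0.36, adjusted p = 0.0281).

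The same differences between the lines were then measured among the siRNA-treated cells, which share no array with the parental cells. Of 27 member probes tested, 12 were higher and 11 lower in MIA PaCa-2, beside 70.3% called over all probes, 40.2% higher and 30.1% lower. The groups did not overlap for 24 of the 27, beside 86.8% of all probes tested. The calls shared by both comparisons numbered 23, all in the same direction, which is 23 of 26 among parental and 23 of 23 among siRNA-treated cells. The matching share over all probes was not counted. Both comparisons also used the same slides and a spread fitted over all arrays. The agreement is therefore not shown to be particular to the members. The 3 called among parental cells only were WNT5A, FZD9 and DKK3, and WNT5A was not tested among siRNA-treated cells. FZD8 was 31.1-fold higher here (4.96 ± 0.12, adjusted p = 7.32e-07), WNT9B at least 4.78-fold higher and WNT2B at least 6.83-fold higher.

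**Figure D3:**
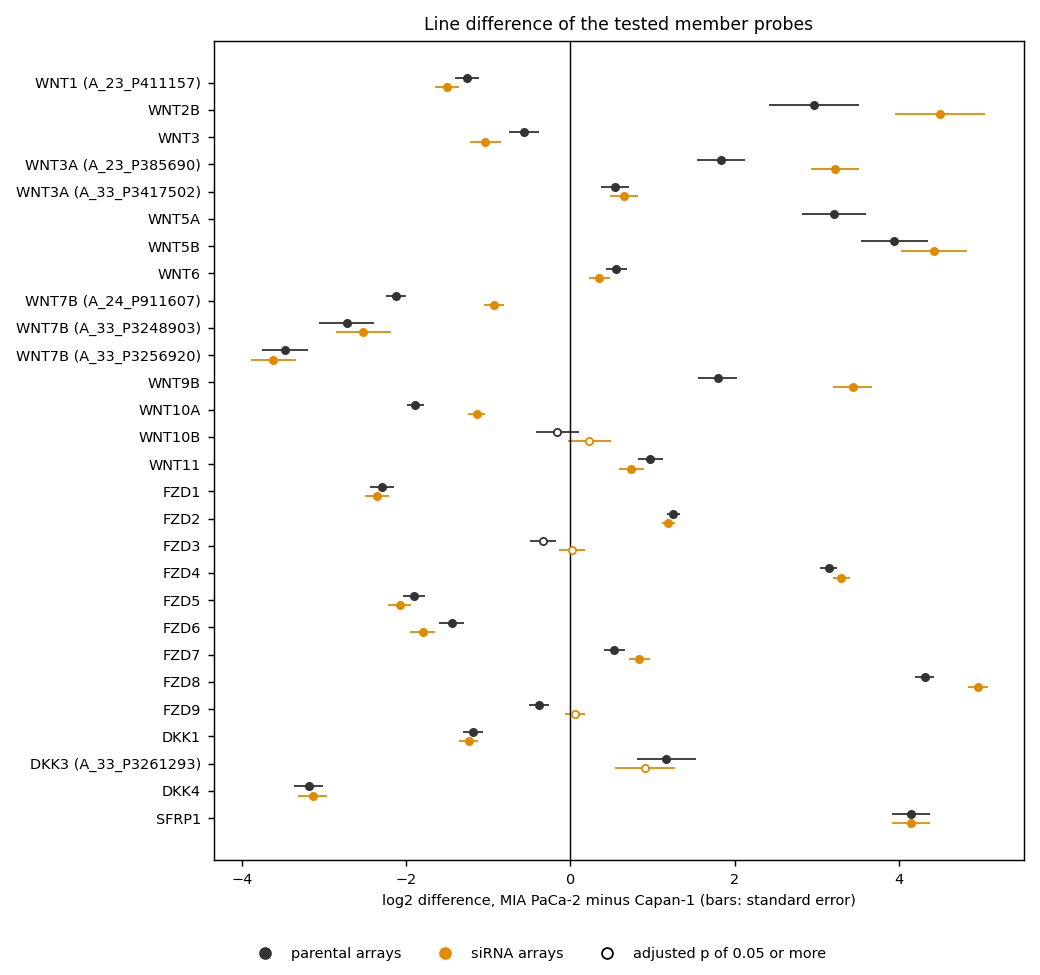
Log2 difference of MIA PaCa-2 minus Capan-1 (x axis, bars are the standard error) for each tested member probe (y axis), among parental arrays and among siRNA arrays. Filled points passed the threshold; 23 probes did so in both, on the same side of 0.

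The rest of the pathway was read from lists of genes by role. In WNT secretion, WLS, the carrier that brings WNT proteins to the surface, was 5.50-fold lower in parental MIA PaCa-2 on its first probe (-2.46 ± 0.13), and PORCN, the enzyme that attaches the lipid, was higher (0.84 ± 0.11). Of 6 co-receptor genes tested, 4 were higher and 2 lower. LRP6 was higher (1.10 ± 0.11) and LRP5 lower (-1.33 ± 0.16), and ROR2 was at least 3.77-fold higher where ROR1 was lower on its first probe (-2.53 ± 0.08).

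Of 6 genes of receptor turnover tested, 1 was higher and 3 were lower in MIA PaCa-2. RNF43, a ubiquitin ligase that removes FZD from the surface, was not well above background in parental MIA PaCa-2, and Capan-1 was at least 241-fold higher. Its relative ZNRF3 (-1.05 ± 0.16) and the R-spondin receptor LGR4 (-1.88 ± 0.10) were also lower, whereas the R-spondin RSPO4 was at least 29.4-fold higher in MIA PaCa-2. Among 8 other inhibitors tested, 4 were higher, with DKKL1 at least 5.69-fold higher and KREMEN2, a DKK receptor, at 2.55 ± 0.09, and 3 were lower, with SOSTDC1 at least 12.0-fold higher in Capan-1.

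Of 19 genes of the Dishevelled, destruction complex and beta-catenin list, 11 were higher and 3 lower in MIA PaCa-2. APC2 (5.33 ± 0.08), APC (1.94 ± 0.18) and DVL1 (0.92 ± 0.08) were higher, and beta-catenin itself, CTNNB1, was lower on its first probe (-1.74 ± 0.17). Among 12 TCF/LEF factors and cofactors, 4 were higher and 6 lower. TCF7 (3.60 ± 0.08) and TCF7L1 (4.16 ± 0.18) were higher, whereas LEF1 was not well above background in parental MIA PaCa-2 and at least 38.6-fold higher in Capan-1.

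Of 15 beta-catenin target genes tested, 3 were higher and 7 lower, with a median probe difference of -0.71, beside 0.11 over all probes. AXIN2, the target most often read as a sign of canonical signaling, was lower (-3.58 ± 0.12), and so were SP5 (-4.32 ± 1.16), CCND1 (-0.80 ± 0.11) and EPHB2 (-1.19 ± 0.10), beside RNF43, ZNRF3 and LEF1. The 3 higher were CD44 (2.42 ± 0.09), NKD1 (0.67 ± 0.24) and TCF7. The call of NKD1 was lost in 10 of 18 alternatives, with normexp at 0.066, and that of SP5, well above background on 1 of the parental MIA PaCa-2 arrays, in 4 of 17, each without 1 parental array. MYC was not called, at 0.05 ± 0.13 (adjusted p = 0.738). Of 7 genes of planar cell polarity tested, 1 was higher and 5 were lower, among them PRICKLE1 (-3.46 ± 0.20) and DAAM1 (-3.39 ± 0.15). Genes can stand in more than 1 list, and with 70.2% of all probes called no list is singled out here.

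**Figure D4:**
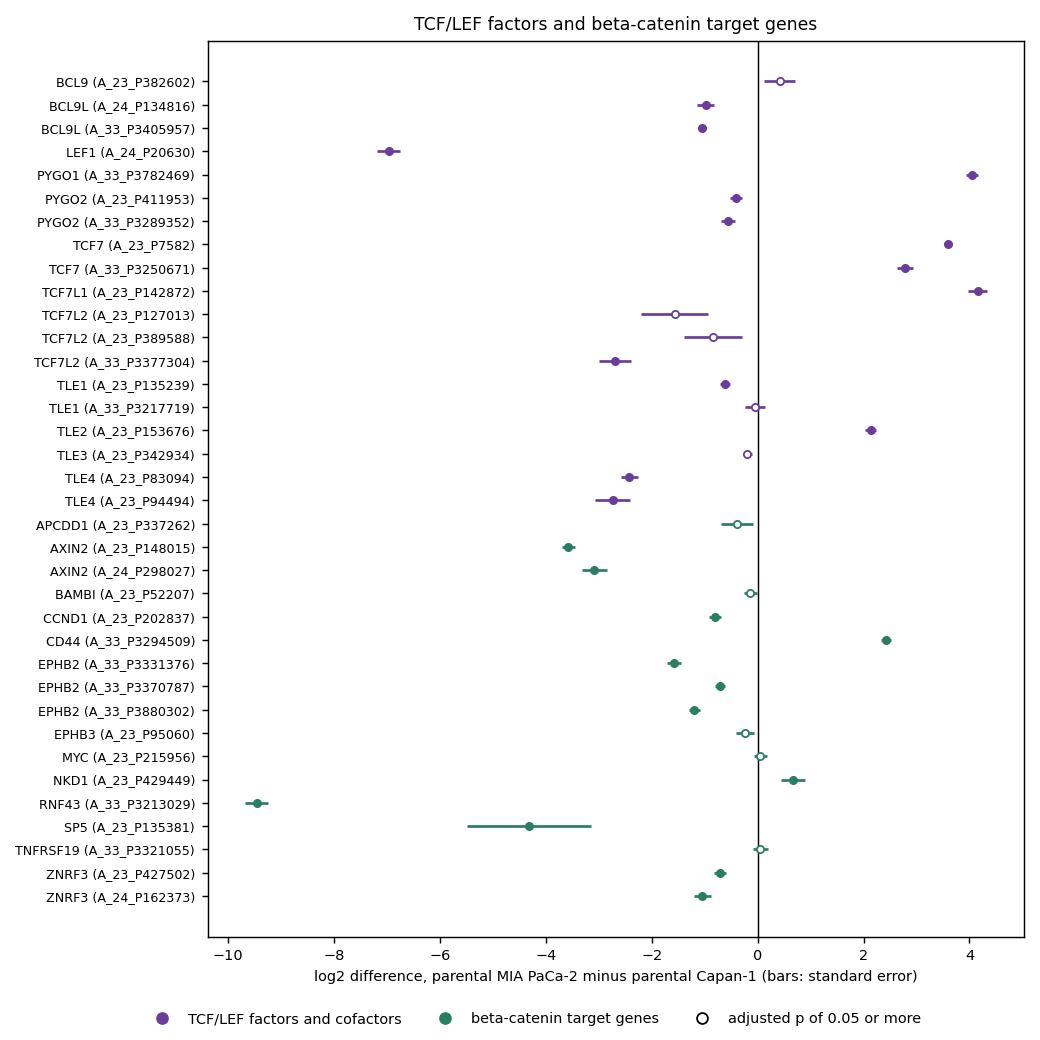
Log2 difference of parental MIA PaCa-2 minus parental Capan-1 (x axis, bars are the standard error) for each tested probe (y axis) of the TCF/LEF factors and cofactors and of the beta-catenin target genes; LEF1 and TCF7 stand in both lists and carry the first color. Filled points passed the threshold, with RNF43, LEF1, SP5 and AXIN2 far to the left and TCF7L1, PYGO1 and TCF7 to the right.

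The comparison of siRNA-treated with parental MIA PaCa-2 asked which members moved with HOXB7 siRNA. Of 25 probes tested, 2 were higher and 0 lower, beside 1.92% called over all probes, 0.983% higher and 0.936% lower. Higher calls made up 51.2% of all calls, and 29.2% without scaling between arrays. At an unadjusted p under 0.05 there were 4 higher and 4 lower, beside 20.5% of all probes. Among the 18 probes above background on all 8 arrays, fitted alone, 3 were higher and 1 lower, beside 4.89% called over all such probes. The groups did not overlap for 14 of the 25 probes, beside 51.4% of all probes tested.

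The members that rose were ligands. WNT7B, on the probe at chr22:44751235-44751294 (hg18), read -5.44 and -5.30 on the parental and -4.39 and -4.14 on the siRNA arrays, 2.15-fold higher (1.11 ± 0.12, 95% interval 0.80 to 1.41, adjusted p = 0.0272). WNT10A, with its probe at chr2:219466637-219466696 (hg18), read -2.47 and -2.31 on the parental and -1.60 and -1.79 on the siRNA arrays, 1.62-fold higher (0.70 ± 0.10, 95% interval 0.44 to 0.95, adjusted p = 0.0408). Every siRNA array lay above every parental array in both cases. The other WNT7B probes were not well above background on any MIA PaCa-2 array, so the rise rests on 1 probe. Both calls were lost, with 0 higher, when any 1 of the 8 arrays was left out, without scaling between arrays, without the filter on dim probes, with the replicate number as a block and with MIA PaCa-2 fitted alone. WNT7B also lost its call with normexp background correction (0.32, adjusted p = 0.0851). Its parental readings lay close above the lowest signals called well above background on those arrays, -6.13 and -5.86.

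The members next in rank missed the threshold. WNT5A read -4.11 and -5.39 on the parental arrays and was not well above background on either siRNA array, so the parental level was at least 2.30-fold higher (adjusted p = 0.0522). FZD8 read -0.45 and -0.31 on the parental and 0.34 and 0.16 on the siRNA arrays (0.63 ± 0.12, 95% interval 0.34 to 0.92, adjusted p = 0.0606). FZD2 read 2.42 and 2.39 on the parental and 1.94 and 2.04 on the siRNA arrays (-0.42 ± 0.08, 95% interval -0.61 to -0.23, adjusted p = 0.0619). In each of these 3 genes the groups did not overlap. WNT5A passed the threshold without parental replicate 2 (adjusted p = 0.0427), in a fit that assumes the lone parental array to vary like the other groups.

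FZD9 read -4.06 and -4.11 on the parental and -3.46 and -3.63 on the siRNA arrays (0.54 ± 0.12, adjusted p = 0.0906). WNT11 read -3.72 and -3.96 against -4.11 and -4.42 (-0.43 ± 0.15, adjusted p = 0.196), and WNT3 read -2.04 and -2.27 against -2.48 and -2.87 (-0.52 ± 0.19, adjusted p = 0.199). The remaining 17 probes, with an unadjusted p of 0.05 or more, lay between -0.34 and 0.60. Among them DKK1 read 2.18 and 2.11 on the siRNA arrays and differed by 0.03 (95% interval -0.26 to 0.33), and SFRP1 read -1.47 and -1.49 and differed by -0.02 (-0.59 to 0.54).

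The other members above background on every array had parental values as given above and no call. The siRNA arrays read -2.37 and -2.74 for FZD1, -2.50 and -2.85 for FZD3 and 2.09 and 1.98 for FZD4. For FZD5 they read -1.35 and -1.41, for FZD6 -1.39 and -1.67, and for FZD7 0.24 and -0.0064. All of these overlapped their parental arrays except FZD3, whose siRNA arrays both lay higher. Among the ligands the siRNA arrays read -3.56 and -3.91 for WNT1, -2.68 and -2.34 for WNT6 and -0.95 and -1.59 for WNT10B. The brighter WNT3A probe read -2.31 and -2.07. Of these ligands only WNT6 had both siRNA arrays below both parental arrays, and none of them was called.

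**Figure D5:**
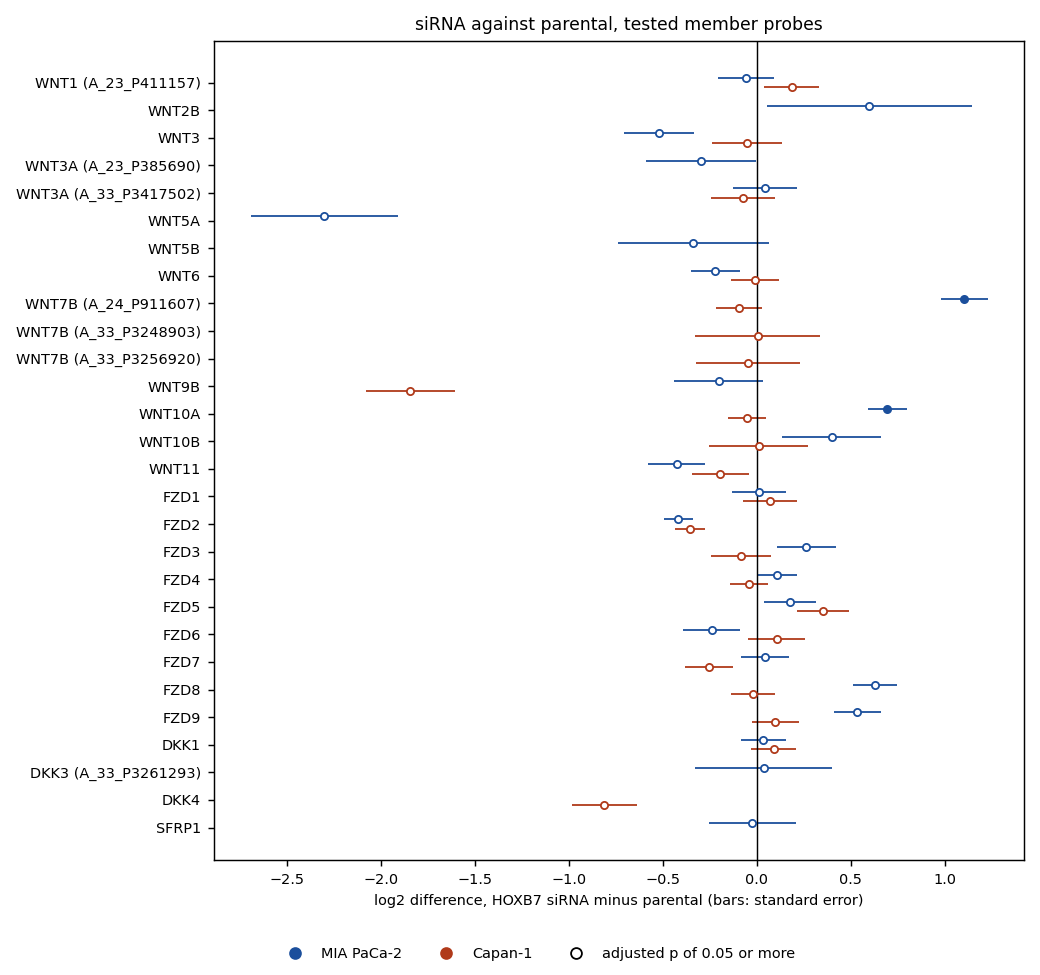
Log2 difference of HOXB7 siRNA minus parental (x axis, bars are the standard error) for each tested member probe (y axis), in blue for MIA PaCa-2 and red for Capan-1. The filled points that passed the threshold are WNT7B and WNT10A in MIA PaCa-2; WNT5A in MIA PaCa-2 and WNT9B in Capan-1 lie farthest to the left without a call.

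In Capan-1, 22 member probes were tested against parental cells and 0 were called by limma, beside 0.00428% over all probes, which is 1 probe. At an unadjusted p under 0.05 there were 1 higher and 3 lower, beside 12.4% of all probes, and the groups did not overlap for 10 of the 22 probes, beside 54.3% of all probes tested. WNT9B read -5.12 and -5.42 on the parental arrays and was not above background on either siRNA array, so the parental level was at least 1.59-fold higher (adjusted p = 0.138). Without siRNA replicate 2 its adjusted p was 0.042, the lone siRNA array being assumed to vary like the other groups. DKK4 read -3.77 and -3.72 on the parental and -4.82 and -4.29 on the siRNA arrays (-0.81 ± 0.18, 95% interval -1.24 to -0.38, adjusted p = 0.235).

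FZD2 in Capan-1 read 1.15 and 1.16 on the parental and 0.79 and 0.80 on the siRNA arrays (-0.36 ± 0.08, 95% interval -0.55 to -0.16, adjusted p = 0.235). In both lines its siRNA arrays thus lay below its parental arrays, without a call in either. FZD5 read 0.33 and 0.36 on the parental and 0.62 and 0.78 on the siRNA arrays (0.35 ± 0.14, adjusted p = 0.39). The remaining 18 probes lay between -0.25 and 0.19. WNT10A, at -0.52 and -0.48 against -0.56 and -0.54, differed by -0.05 (95% interval -0.30 to 0.20), and the WNT7B probe that rose in MIA PaCa-2 read -3.25 and -3.24 against -3.24 and -3.43 and differed by -0.09 (-0.40 to 0.21).

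The other receptors in siRNA-treated Capan-1 read -0.20 and -0.19 for FZD1, -2.52 and -2.86 for FZD3 and -1.18 and -1.34 for FZD4. They read 0.15 and 0.37 for FZD6, -0.80 and -0.63 for FZD7, -4.62 and -4.80 for FZD8 and -3.68 and -3.53 for FZD9. Both siRNA arrays lay above the parental arrays for FZD1 and below them for FZD7, and the others overlapped. Among the ligands they read -2.22 and -2.24 for WNT1, -1.48 and -1.80 for WNT3, -2.80 and -2.91 for WNT6, -1.32 and -1.68 for WNT10B and -4.88 and -5.13 for WNT11. The brighter WNT3A probe read -3.02 and -2.67, and DKK1 read 3.32 and 3.45. WNT1 and DKK1 lay above and WNT11 below both parental arrays, without a call.

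Whether the response to siRNA differed between the lines was tested as a contrast of its own. Of 28 member probes 0 were called by limma, beside 0.00783% over all probes, and 6 higher and 1 lower had an unadjusted p under 0.05, beside 11.1% of all probes. The difference, MIA PaCa-2 minus Capan-1, was 1.20 ± 0.17 for WNT7B (adjusted p = 0.143), 0.75 ± 0.15 for WNT10A (adjusted p = 0.188) and 0.65 ± 0.17 for FZD8 (adjusted p = 0.275). It was 1.64 ± 0.34 for WNT9B (adjusted p = 0.195) and -2.31 ± 0.55 for WNT5A (adjusted p = 0.252), each of which was not well above background in 1 or more groups. The calls in MIA PaCa-2 were therefore not shown to be particular to that line.

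Around the members, little of the pathway passed the threshold with siRNA. In MIA PaCa-2 the single gene called among the 8 pathway lists was BCL9L, a cofactor of beta-catenin. Its called probe rose by 0.55 ± 0.07 (adjusted p = 0.0336). Another probe of the gene did not rise, averaging -0.56 in parental and -0.62 in siRNA-treated MIA PaCa-2. In Capan-1, 0 genes of these lists were called. Of 12 beta-catenin target genes tested in MIA PaCa-2, 0 were called, and 3 of 16 probes had an unadjusted p under 0.05, beside the 20.5% over all probes. Interferon-stimulated genes had a median difference of 0.40 in Capan-1 with 0 of 15 genes called, and 10 of 19 probes had an unadjusted p under 0.05, beside the 12.4% over all probes. Their summed intensity there was 10933 to 12601 in parental and 15077 to 17239 in siRNA-treated cells. In MIA PaCa-2 it was 20039 to 24526 and 16710 to 16844, while IFI27 (2.09 ± 0.10) and IFI6 (0.82 ± 0.12) rose, and the part of these genes in the member values was not tested. The epithelial marker MUC1 fell with siRNA in MIA PaCa-2 (-0.92 ± 0.10, adjusted p = 0.0247), the single call among 7 epithelial genes tested there, and CD68, a leukocyte marker, rose (0.70 ± 0.11, adjusted p = 0.0438), the single call among 6 leukocyte genes. Each of these calls was lost in 12 of 18 alternatives. The summed intensity of the epithelial list was 96222 to 102508 in siRNA-treated MIA PaCa-2, below the parental range given above. That sum is not scaled, and without scaling the median siRNA difference of all probes in MIA PaCa-2 was -0.19. The part of these markers in the rises of WNT7B and WNT10A was not tested.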

How the data were processed

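RNA of 8 samples, 2 in each of 4 groups, was labeled with Cy3 and hybridized to one-color Agilent arrays. The authors scanned the arrays and deposited the intensity of every spot after background subtraction by Agilent Feature Extraction 9.5.3, with outlier and background calls, and a deposited table of log2 values, which equals the log2 of these intensities with no scaling between arrays. Signals at background were replaced by small surrogate values in that software. Probe positions are those of hg18 in the files.

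Here the log2 intensities of the unflagged spots of a probe were averaged, and the 75th percentile over gene probes was subtracted on each array. A probe was called well above background when most of its spots were, and was tested when this call held for both arrays in 1 or more of the groups compared. Group means were fitted to 25549 probes with limma 3.58.1 in R 4.3.3 (lmFit, eBayes), with 5 contrasts, two-sided, and Benjamini-Hochberg adjustment over all probes tested at 0.05. Errors are standard errors of the fit and intervals are 95%. A gene counts as higher or lower by any probe that passed that way, unless another probe passed the other way. If neither array of a group had signal well above background, a fold is given as "at least". It is taken against the higher of the probe's own value and the lowest signal well above background on each array. The fitted difference is no bound. Such a fold does not allow for the spread between arrays. It equals the fitted fold where the probe's own value was the higher on both arrays. The number of arrays limits the precision.

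Every member could be named, with values on each array for members past the threshold in a comparison or above background on all 8 arrays, and others by counts; pathway genes were named when past the threshold, at most 6 a list and comparison by adjusted p, and CTNNB1, CCND1, SP5, NKD1 and MYC, outside this rule, were chosen after their values were seen. The members and lists were chosen with earlier results of these data known. For a pathway gene with several probes the one with the smallest adjusted p is given. The limma fit was tested on simulated data, but the averaging of spots, the scaling and the background filter were not. Alternatives were the background correction (normexp, offset 50), quantile or no scaling, keeping outlier spots, the deposited log2 table, the filter on dim probes, an intensity trend in the spread, the replicate number as a block, each array left out and the groups compared alone. Promoters were read in Python 3.11.15 with pandas 2.3.3, and figures drawn with matplotlib 3.10.9.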

Additional observations from a re-analysis of the deposited data

Results flagged for a closer look

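WNT10A was marked because its arrays moved in opposite directions in the lines. In MIA PaCa-2 each siRNA array lay above each parental array, and in Capan-1 each lay below, there by 0.05 on the log2 scale (95% interval -0.30 to 0.20). The difference between the responses was 0.75 on the log2 scale (SE 0.15) and did not pass the test of that difference by limma, with an adjusted p of 0.188.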

How the results depend on the processing

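The difference between the lines kept its direction for all members called, under every alternative in which they could be tested. Requiring signal on all 8 arrays, which leaves 18 member probes, gave 7 higher among parental and 7 higher among siRNA-treated cells. Leaving out each array in turn gave 11 to 14 higher and 10 to 12 lower among parental cells, and 10 to 12 higher and 11 lower among siRNA-treated cells. Fitted differences of dim probes shrank with the normexp correction, among parental cells on the log2 scale WNT5A to 0.29 from 3.21, WNT2B to 0.42 from 2.96, WNT5B to 0.66 from 3.94, DKK4 to -0.36 from -3.18, SFRP1 to 1.36 from 4.14 and FZD8 to 2.11 from 4.31, all still past the threshold. DKK4 lost its call with it among siRNA-treated cells (-0.16, adjusted p = 0.18). FZD9 lost its call among parental cells in 9 of 18 alternatives, WNT3 in 6, the brighter WNT3A probe in 5 and DKK3 in 4, and among siRNA-treated cells WNT6 lost it in 13.

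With siRNA in MIA PaCa-2, no member was higher past the threshold without scaling (0 probes), without the filter (0), with the replicate number as a block (0), with the line fitted alone (0) or with any single array left out (0 to 0). Lower calls numbered 1 with normexp, 1 with quantile scaling, 1 with signal on all 8 arrays, 2 with an intensity trend and 0 to 1 with single arrays left out. FZD8 was called in 4 and FZD2 and WNT5A in 3 alternatives each. WNT7B ranged from 0.32 to 1.23 on the log2 scale (adjusted p 0.0114 to 0.136), its lowest value being with normexp, and WNT10A from 0.43 to 0.79 (adjusted p 0.0152 to 0.301). In Capan-1 lower calls numbered 0 to 1 with single arrays left out, WNT9B being called without siRNA replicate 2. Without scaling the median of all probes was -0.19 for MIA PaCa-2 and -0.16 for Capan-1. The cause of these changes was not tested. The difference of the responses gave 0 calls in each alternative run.

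It is not said whether siRNA and parental arrays of the same replicate number were handled together. Their deviations correlated at 0.025 for MIA PaCa-2 and 0.031 for Capan-1, which cannot show that they were not. With the block, the calls over all probes in MIA PaCa-2 fell to 7 higher and 12 lower from 233 and 222. HOXB7 in MIA PaCa-2 kept its call in 8 of 17 alternatives, and its difference with normexp was -0.098 (adjusted p = 0.599), while for Capan-1 it passed in 3 of 17. With siRNA in MIA PaCa-2, BCL9L, IFI6, MUC1 and CD68 lost their calls in 12 of 18 alternatives each and IFI27 in 1.

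Among the values recomputed for the text, signs turned for some that were not called. With single arrays left out, WNT10B ranged from -0.33 to 0.011 between parental lines and from -0.092 to 0.55 between siRNA-treated lines. Between siRNA-treated lines FZD3 ranged from -0.16 to 0.19 and FZD9 from -0.029 to 0.14, and FZD3 was -0.012 without scaling. With siRNA in MIA PaCa-2, DKK1 ranged from -0.11 to 0.18 and SFRP1 from -0.072 to 0.026, and in Capan-1 the WNT7B probe ranged from -0.19 to 0.0034. MYC between parental lines ranged from -0.086 to 0.19 and was -0.015 with quantile scaling. DKK1 in MIA PaCa-2 was -0.18 without scaling. With normexp, WNT11 was 0.053 in MIA PaCa-2, against -0.43, and SFRP1 0.011, and the WNT7B probe was 0.041 in Capan-1. The 7 member probes above background on no array could not be measured at this signal.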
